A study of Danio rerio with 6 samples.

Results

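Bmp15 and gdf9 are the genes of a pair of growth factors made by the oocyte. They were followed here as 2 transcripts, MSTRG.10580.1 for bmp15 and MSTRG.18441.1 for gdf9, out of 13927 assembled transcripts in the deposited table. RNA from whole bodies of zebrafish was sequenced, 1 fish per library, from 2 adult females, 2 adult males and 2 juveniles of 28 dpf (days post fertilisation). None of the fish was treated, and all had been euthanised by the breeder before sampling. The strain and the age of the adults are not given in the sources used here, and the labels give no sex for the juveniles. The study assumed from its expression data that both juveniles are male, so that assumption is not independent of the values shown here. The study asked which genes tell the sexes apart and are already expressed at the juvenile stage. It took bmp15 from earlier work of the same group. It chose gdf9 from these libraries with support from published studies, so that the direction of gdf9 in the adults is not independent evidence. The study cites that earlier work for the comparison of these transcript data, so the direction of bmp15 may not be independent either. Both genes were chosen here by name, through the transcript whose values match those printed for the gene in the study's heat map of female genes, and the table itself holds no gene names. No other transcript of the table lay within 10% or 1 count of either of them in all 6 fish (0 for bmp15 and 0 for gdf9), and each is the only transcript of its assembled locus in the table.

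Bmp15 (bone morphogenetic protein 15) and Gdf9 (growth differentiation factor 9) belong to the transforming growth factor beta family. The growing oocyte secretes them, and they act on the follicle cells around it. They do so through pairs of type I and type II receptor kinases, which pass the signal to SMAD proteins. In mammals both are needed for a normal ovary, and the products of the genes can join in a mixed dimer. In zebrafish, adult females that lack bmp15 turn into males. The receptors and SMAD proteins of this pathway were not analysed here, because the table does not pair their names with transcripts.

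The values are normalised counts, which are reads per transcript divided by a size factor for each fish. The authors' own test gave all 13927 transcripts an adjusted p below 0.05, and its fold changes track the ratio of females to juveniles (r = 0.993 by Pearson over transcripts, which do not count as replicates). The table is thus a selection on that difference, so females and juveniles are set side by side as values with no test. Each fish has 13980849 to 18635087 recovered reads in the table, out of a library whose full depth is unknown. The sex markers of the study were partly chosen on these libraries, so that their direction is no independent check of the labels. The 6 male genes of the study found in the table were lower in females than in males. Their log2 fold changes ran from -1.47 to -0.75. Of the study's 14 other female genes, 13 were called higher in females. Nr0b1 was also higher but did not pass (log2 fold change 1.22, limma adjusted p = 0.129). Over all transcripts tested, 20.1% were called lower and 40.5% higher in females.

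Bmp15 and gdf9 were abundant in adult females and present only in traces in the other fish. Bmp15 had 5940 normalised counts in female 1 and 7429 in female 2, against 31.1 in male 1 and 7.19 in male 2. The juveniles had 2.12 (juvenile 2) and 3.70 (juvenile 3). Every female was far above every male, where 46.6% of all transcripts had both females above both males. Both males were also above both juveniles, as in 31.4% of all transcripts, but the reads do not fix this order. Male 2 had only 9 reads, against 2 in juvenile 2 and 4 in juvenile 3. Its exact Poisson interval (3.29 to 13.7 normalised counts) overlaps those of juvenile 2 (0.256 to 7.65) and juvenile 3 (1.01 to 9.48). Gdf9 had 3021 normalised counts in female 1 and 3705 in female 2, against 24.01 in male 1 and 3.995 in male 2. The juveniles had 2.12 (juvenile 2) and 12.03 (juvenile 3). For gdf9 the males and juveniles overlapped, since juvenile 3 lay between the males. In whole-body RNA, fewer expressing cells and less RNA per cell cannot be told apart, and the cells that gave the reads were not identified.

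**Figure D1:**
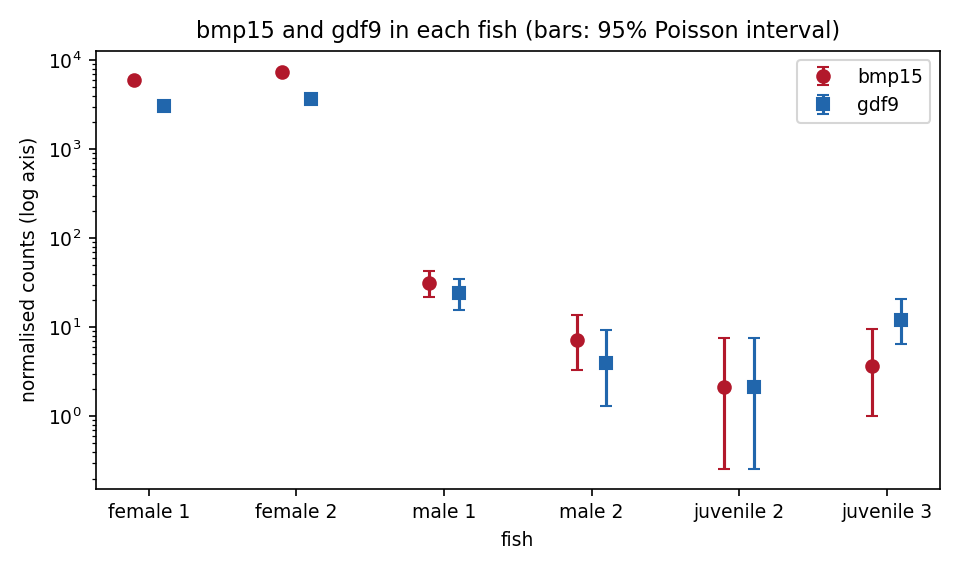
Normalised counts of bmp15 (circles) and gdf9 (squares) in each of the 6 fish on a log axis, with bars for the 95% exact Poisson interval of the reads. The females sit between 3021 and 7429, and every male and juvenile sits at 31.1 or below.

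The question of the first comparison was how far the genes separate adult females from adult males. Both genes were higher in females. Their ratios were above those of the transcripts of 12 of the 14 other female genes of the study found in the table, and for vtg1 and cyp19a1a only lower bounds are known. Zbp3 has a second transcript in the table, with a higher ratio than both. Bmp15 averaged 6685 ± 1052 in females and 19.2 ± 16.9 in males (normalised counts, SD, n = 2 each), a ratio of 349. In females against males its log2 fold change of 8.68 had a standard error of 0.69 (limma, adjusted p = 0.000214). Gdf9 averaged 3363 ± 484 in females and 14.0 ± 14.2 in males (normalised counts, SD, n = 2 each), a ratio of 240.1. Its log2 fold change of 8.23 had a standard error of 0.96 (limma, adjusted p = 0.000784). A call in this direction is common in the table (40.5% of all transcripts tested), where the median log2 fold change was 0.16. A higher fitted log2 fold change was found for 54 of the 13748 transcripts tested than for bmp15, and for 77 than for gdf9. In 46.6% of all transcripts both females were above both males. The size of each ratio depended on which male was kept, because without male 1 it was 929 for bmp15 and 842 for gdf9, while without male 2 it was 215 and 140.04. It also depended on the scaling. The 4 scalings estimated on the table gave 173 to 234 for bmp15 and 119 to 161 for gdf9. All were lower than with the deposited size factors. These 4 scalings rest only on transcripts selected on a difference between females and juveniles, and that selection may have pulled them. A table picked on its difference between females and juveniles holds fewer transcripts that vary within these groups, and the errors and adjusted p given here may for that reason be too small.

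The male values come from few reads. Male 1 had 35 reads of bmp15 and 27 of gdf9, and male 2 had 9 and 5. Both genes were higher in male 1 than in male 2, by 4.33 times for bmp15 (95% exact interval 2.04 to 10.2) and by 6.01 times for gdf9 (2.28 to 19.99). These intervals, and those below, cover counting error only and leave out the variation between fish. The reads carry no molecular identifiers, so even the counting error may be understated. The females differed by much less, with female 2 at 1.25 times female 1 for bmp15 and 1.23 times for gdf9. These ratios moved little with the scaling, as the 4 scalings estimated on the table gave 4.31 to 4.42 times for bmp15 and 5.98 to 6.13 times for gdf9.

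The trace in males was shared by the 2 genes in its size relative to females. In male 1 it was 0.466% of the female mean for bmp15 and 0.714% for gdf9, and in male 2 it was 0.108% and 0.119%. Cyp17a1, igf3 and ccnb1, other female genes of the study, left a larger share. This was not general, since a second transcript of zbp3 left a smaller share than both genes in each male. It had 74.7 normalised counts in male 1 and 11.99 in male 2, against a female mean of 21669. Cyp19a1a had 0 reads in both males, but its female mean of 26.0 normalised counts is too low to fix a share. The study also places cyp17a1 in Leydig cells. Cyp17a1, the 17-alpha-hydroxylase of steroid synthesis, had 4.04% of its female mean in male 1 and 1.48% in male 2. Igf3, a gonadal insulin-like growth factor, had 3.38% in male 1 and 1.22% in male 2, from 5 and 2 reads. Ccnb1, a cyclin of the G2/M transition, had 1.27% in male 1 and 0.959% in male 2. All 3 were, like bmp15 and gdf9, higher in male 1. Of the 14 other female genes 7 were higher in male 1, 5 were higher in male 2 and 2 (vtg1 and cyp19a1a) had 0 reads in both males.

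**Figure D2:**
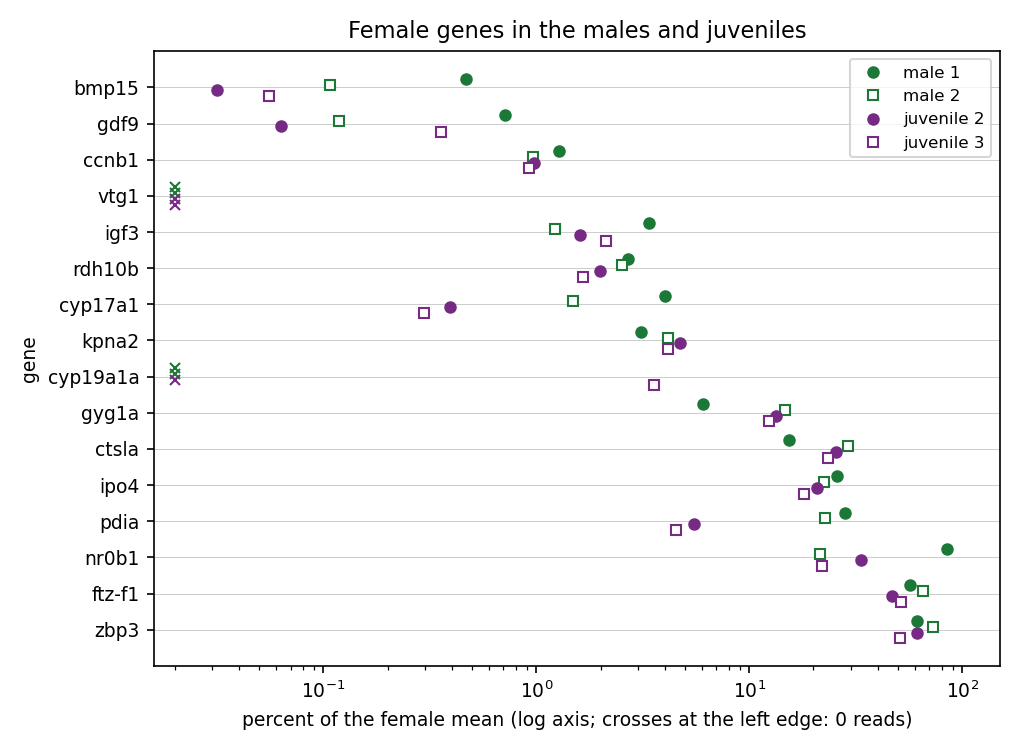
Normalised counts in the males (green) and juveniles (purple) as a percent of the female mean, on a log axis, for the 16 female genes ordered by the ratio of females to males, with crosses at the left edge for 0 reads. Bmp15 and gdf9 lie below 1% in all 4 fish, with male 1 the highest for both.

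A set of transcripts that was not chosen on the males was used to see how common this trace was. It was defined after the values had been seen, as the 151 transcripts with a female mean of at least 1000 normalised counts and of at least 100 times the juvenile mean, and it holds both genes. In this set 131 transcripts were higher in male 1 than in male 2 and 20 were lower, and the median ratio of male 1 to male 2 was 2.73 over the 138 transcripts with reads in male 2. Of these, 40 had a higher ratio than bmp15 and 25 a higher ratio than gdf9. The transcripts of the set with no read in male 2 are left out, though all had reads in male 1. The median ratio and these counts are therefore lower limits. The median transcript of the set had 0.671% of its female mean in male 1 (quartiles 0.333% and 1.42%) and 0.221% in male 2 (0.0911% and 0.796%). Bmp15 and gdf9 lay within these quartiles in both males. Among all 3894 transcripts with a female mean of at least 1000 normalised counts, 0 had no read in male 1 and 13 had none in male 2. The source of these reads in the males was not tested.

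The second comparison asked whether the genes differ between adult males and juveniles. Neither passed the test, where 16.2% of all transcripts were called higher and 18.6% lower in males. Bmp15 averaged 19.2 ± 16.9 normalised counts in males and 2.91 ± 1.12 in juveniles (SD, n = 2 each), a ratio of 6.59. In males against juveniles its log2 fold change of 2.08 had a standard error of 0.69 (limma, adjusted p = 0.0606). Both males were above both juveniles, as in 31.4% of all transcripts. Of these 4 fish only male 1 reached 10 normalised counts, so bmp15 passed the filter on low values through the females, and a fit of males and juveniles alone gave no value. Of 15 alternatives 11 did not pass either, with log2 fold changes from 1.05 to 2.62 and adjusted p from 0.0530 to 0.196, edgeR among them (2.62, 0.0544). The 4 that passed were the total of the table (2.53, 0.0335) and TMM (2.25, 0.0499) as the scaling, DESeq2 on the recovered reads (2.69, 0.00423), and the fit without male 2 (3.07, 0.0164). The last rests on male 1 alone, which is assumed to vary like the other groups, and without male 1 the log2 fold change was 1.10 (adjusted p = 0.190).

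Gdf9 averaged 14.0 ± 14.2 normalised counts in males and 7.07 ± 7.01 in juveniles (SD, n = 2 each), a ratio of 1.98. The log2 fold change of 0.81 had a standard error of 0.96 (limma, adjusted p = 0.537). It was -0.35 without male 1 and -0.22 without juvenile 2, so no direction can be given. Of the 14 other female genes, 3 were higher in males than in juveniles (cyp17a1, pdia and rdh10b) and 11 did not pass. Their median log2 fold change was 0.24.

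The juveniles held 6 reads of bmp15 in all, 2 in juvenile 2 and 4 in juvenile 3. They held 15 reads of gdf9, 2 in juvenile 2 and 13 in juvenile 3. The floor taken here, 3 reads summed over both juveniles, is a mean of 1.48 normalised counts, so the level of bmp15 in juveniles is poorly fixed. The ratio of juvenile 3 to juvenile 2 was 1.75 for bmp15 (95% exact interval 0.251 to 19.3), which does not separate the juveniles. For gdf9 it was 5.68 (1.29 to 51.9). In the set of 151 transcripts, the median ratio of juvenile 3 to juvenile 2 was 1.14 over the 113 with reads in juvenile 2, and 6 of these had a higher ratio than gdf9. Transcripts with reads in juvenile 3 alone are not among them. The set was chosen partly on a low juvenile mean, so it is no independent background for the juveniles. Among the other ovarian genes of the study, cyp17a1 had 24.3 normalised counts in juvenile 2 and 18.5 in juvenile 3, and igf3 had 2.12 and 2.78. Cyp19a1a, the gonadal aromatase, had 0 reads and 1 read. In females bmp15 was 2298 times and gdf9 475 times the juvenile mean, and these ratios were 3158 and 1589 without juvenile 3 and 1806 and 279.5 without juvenile 2.

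The 2 genes were then set against each other within each fish. This ratio is free of the size factor, but it is a ratio of reads and not of transcript molecules, because the lengths of the assembled transcripts are not in the table. Female 1 had 5117 reads of bmp15 and 2602 of gdf9, and female 2 had 5271 and 2629. The ratios of 1.97 and 2.00 were thus almost the same in the females. Bmp15 made up 66.3% of the reads of both genes in female 1 (95% exact Clopper-Pearson interval 65.2% to 67.3%) and 66.7% in female 2 (65.7% to 67.8%). In male 1 the ratio was 1.30 and the share of bmp15 was 56.5% (43.3% to 69.0%). In male 2 the ratio was 1.80 and the share was 64.3% (35.1% to 87.2%). Both male intervals include the shares of the females. Juvenile 2 had as many reads of bmp15 as of gdf9, and 4 reads in all leave an interval of 6.76% to 93.2%. Juvenile 3 was the only fish with fewer reads of bmp15 than of gdf9, with a ratio of 0.308 and a share of 23.5% (6.81% to 49.9%). Its interval lies below those of both females. The study's heat map gives the juveniles in opposite order for the genes, so the pairing within a juvenile rests on the deposited columns alone.

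**Figure D3:**
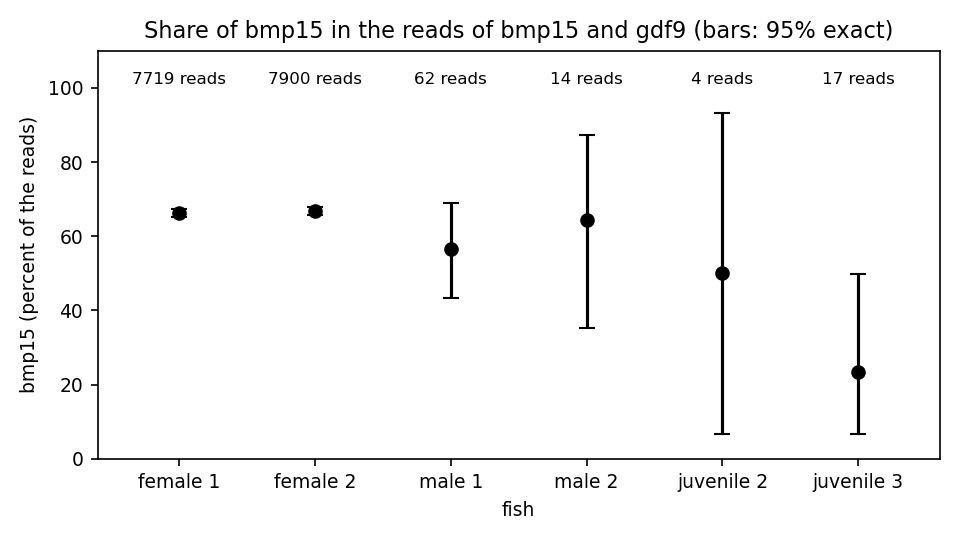
Share of bmp15 in the reads of bmp15 and gdf9 in each fish, in percent, with 95% exact Clopper-Pearson intervals and the number of reads of both genes above each point. The females sit at 66.3% and 66.7% with narrow intervals, the intervals of the males include these values, and that of juvenile 3 ends at 49.9%.

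Over fish, the log2 ratio of bmp15 to gdf9 was 0.99 ± 0.02 in females and 0.61 ± 0.33 in males (SD, n = 2 each). The difference of 0.38 gave p = 0.333 in a two-sided exact permutation test, which is the smallest p that 2 fish against 2 allow. In males against juveniles the difference was 1.46, with -0.85 ± 1.20 in juveniles (SD, n = 2), and the exact permutation p was again 0.333. No other test of this ratio was made. When the reads were summed within groups, the share of bmp15 was 66.5% in females, 57.9% in males (95% exact interval 46.0% to 69.1%) and 28.6% in juveniles (11.3% to 52.2%).

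Among the 7198 transcripts with a higher mean in females than in males, bmp15 was number 74 and gdf9 number 114 by the ratio of the means. Both are among the 275 transcripts with a ratio of at least 100. For the 213 transcripts with 0 reads in both males the ratio was taken against what 3 reads summed over the males would give (1.26 normalised counts), and is a lower bound. At these bounds 1 of them stood ahead of bmp15 and 3 ahead of gdf9. If all of them stood ahead, bmp15 would be number 286 and gdf9 number 324, so the transcripts at 0 reads alone leave their places open to this extent. By the difference of the means, which favours abundant transcripts, bmp15 was number 307 and gdf9 number 787. Among the 5392 of these transcripts averaging 100 normalised counts or more, where only 5 had 0 reads in both males, bmp15 was number 67 (at most 71) and gdf9 number 94 (at most 96) by ratio. Of the 73 transcripts ahead of bmp15 by ratio, 32 also had a female mean at least as high, and of the 113 ahead of gdf9, 52 did. Among all 7198 transcripts, 530 had a female mean at least as high as bmp15 and 1375 at least as high as gdf9, each gene itself included. Without male 1, bmp15 was number 43 and gdf9 number 51. Neither gene is among the 47 transcripts that carry a selection mark in the table.

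**Figure D4:**
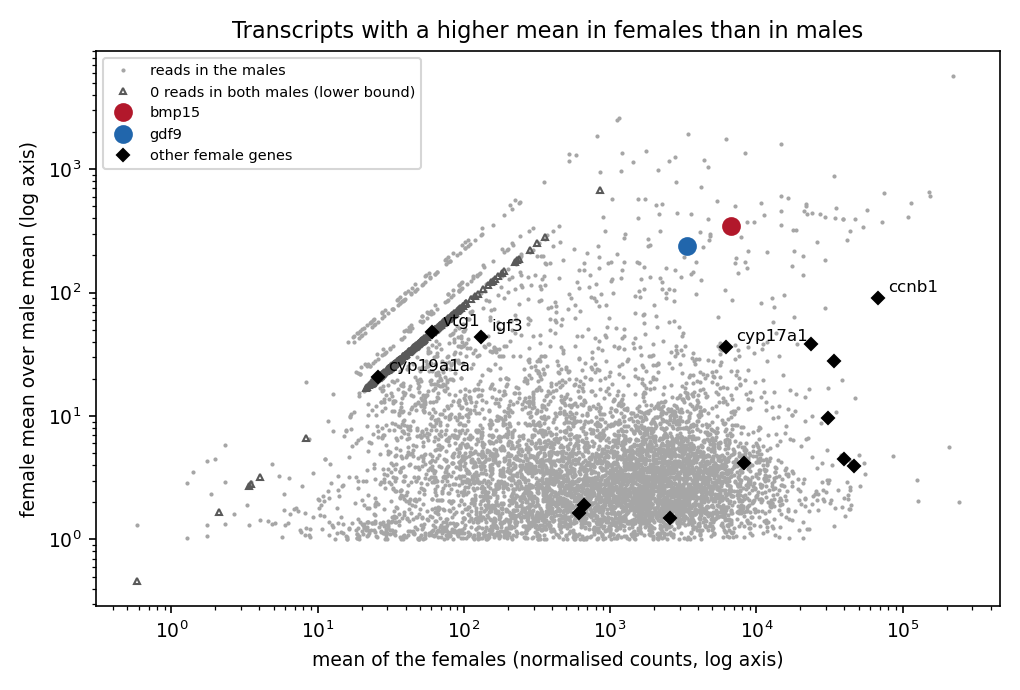
Ratio of the female to the male mean against the female mean, both on log axes, for the 7198 transcripts with a higher mean in females (triangles: 0 reads in both males, drawn at their lower bound). Bmp15 and gdf9 lie at ratios of 349 and 240.1, above the transcripts followed for the other 14 female genes of the study (diamonds), of which vtg1 and cyp19a1a are lower bounds whose true place is not known.

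Most of the other female genes reached lower ratios. Ccnb1 was 89.6 times, igf3 43.5 times, rdh10b, a retinol dehydrogenase, 38.5 times and cyp17a1 36.3 times higher in females than in males. Vtg1, the yolk precursor vitellogenin, and cyp19a1a had 0 reads in the males, and females were at least 48.1-fold and at least 20.6-fold higher. Since these are bounds, their place relative to bmp15 and gdf9 is not known. The transcript followed for vtg1 had only 44 reads in female 1 and 50 in female 2. For the other genes ipo4, an importin, was 4.15 times higher, and the smallest ratio was 1.49 for the transcript of zbp3 that matches the study's values. The second transcript of the assembled locus of zbp3 was far more unequal, with 20893 and 22445 normalised counts in the females, 74.7 and 11.99 in the males and 15.9 and 1.85 in the juveniles. Its ratio of 499.9 is above those of bmp15 and gdf9. The other 13 female genes, vtg1 among them, have no further transcript of their locus in the table. The table is a selection, so other transcripts of these loci may have been left out of it. The median log2 fold change of the 14 transcripts followed was 4.06.

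The transcripts most like each gene were sought over the 6 fish by the root mean squared difference between profiles of log2 (normalised count + 1), each centred on its own mean, among 9527 other transcripts averaging 100 normalised counts or more. Nearest to bmp15 was MSTRG.2111.1, with a difference of 0.14 on the log2 scale. It had 64099 and 79235 normalised counts in the females, 289.9 and 92.7 in the males and 31.7 and 40.7 in the juveniles, so it ran parallel to bmp15 at a higher level. Nearest to gdf9 was MSTRG.28576.1, with a difference of 0.47. Its normalised counts were 12936 and 10860 in the females, 85.4 and 27.2 in the males and 15.9 and 28.7 in the juveniles. Neither transcript has a gene name in the table.

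The 2 genes were close to each other but were not each other's nearest. Their difference was 0.85, against a median of 4.28 between bmp15 and all other transcripts and of 3.81 between gdf9 and all others. Gdf9 was number 42 by closeness to bmp15, and bmp15 was number 38 by closeness to gdf9. The Pearson correlation of the profiles was 0.988 over the 6 fish, where 406 transcripts had an r over 0.99 with bmp15 and 102 with gdf9. All of these values share the same 6 libraries and are a description. The profiles part most in juvenile 3, where the pairing of the genes rests on the deposited columns alone.

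**Figure D5:**
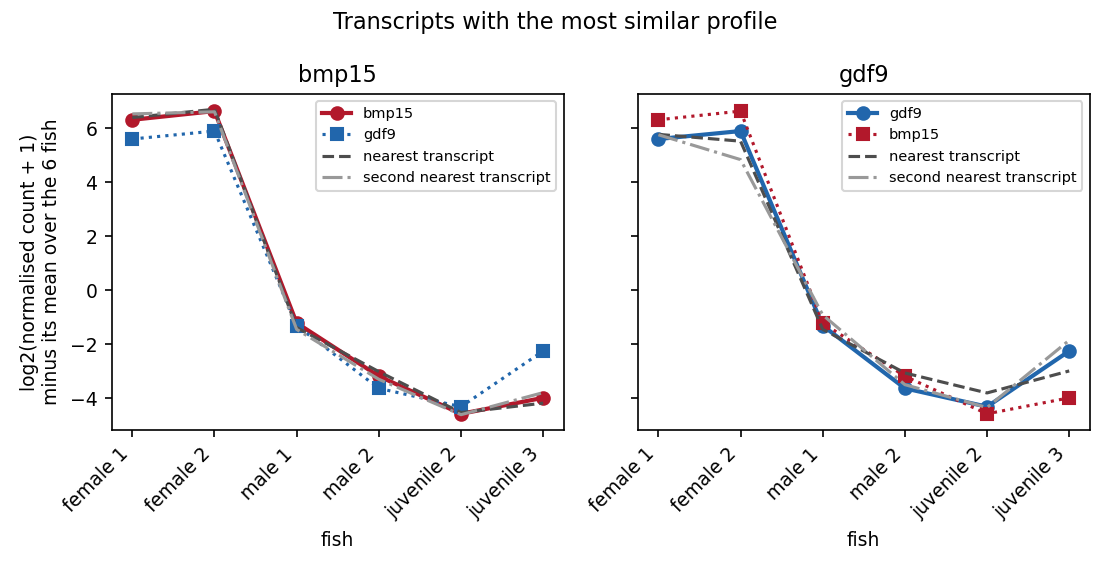
Profiles of bmp15 (left) and gdf9 (right) over the 6 fish as log2 (normalised count + 1) minus its own mean, with the other gene and the 2 nearest transcripts. The nearest transcript of bmp15 follows it with a difference of 0.14, and bmp15 and gdf9 differ by 0.85, most of all in juvenile 3.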

How the data were processed

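Per the labels and the study's methods, HISAT2 2.1.0 was used for mapping to GRCz11 and StringTie 1.3.4 for assembly. Counting was done with featureCounts 1.6.3 and normalisation with DESeq2 (Galaxy version 2.11.40.2). The study gives all of these as versions of the tools on the Galaxy server. The deposited signal values are read counts over a size factor of each fish (median of ratios), with their mean. The log2 fold changes and adjusted p-values of the authors were read only to learn how the table had been selected, and their standard errors, Wald statistics and raw p-values were not used. In each fish 100% of the values came within 0.01 of a whole read. The juvenile columns are numbered 2 and 3, unlike the labels, and were assigned to the group only. The heat map that names the genes gives the juveniles in opposite order for bmp15 and gdf9, so either order was accepted.

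The test was limma-trend (limma 3.58.1 in R 4.3.3) on log2 (normalised count + 1). It ran over the 13748 transcripts that reached 10 normalised counts in 2 or more fish, in 1 fit of all 3 groups (3 residual degrees of freedom), with a threshold of 0.05 after Benjamini-Hochberg adjustment. Fold changes on this scale understate the change of weakly expressed transcripts. Every adjusted p comes from limma unless edgeR 4.0.16 or DESeq2 1.42.0 is named. Both were run on the recovered reads with the deposited size factors. The genes named are bmp15, gdf9, the other markers of the study and the nearest transcript of each gene, and the members and lists were chosen with earlier results of these data known. Python 3.11.15 with scipy 1.17.1 was used for exact intervals and permutation tests. Alternatives were other scalings, filters, a pseudocount of 10, other tests, fits of the compared groups alone, the replicate number of the adults as a block, and each fish left out, where a lone fish is assumed to vary like the other groups. The rank among abundant transcripts by other measures, and the rank with every male mean under the floor raised to it, were added after seeing the data.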

Additional observations from a re-analysis of the deposited data

How the results depend on the processing

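Females against males kept its direction for both genes under all 17 alternatives. The log2 fold changes ran from 7.69 to 9.66 for bmp15 and from 7.06 to 9.39 for gdf9. Settings that changed only the filter, the groups in the fit, the block or the juveniles could not move the fold change. They bear on the call alone. Leaving out an adult could not reverse the direction, because every female was above every male for both genes. Both genes stayed called in every alternative with 2 fish in each group. The scalings estimated on the table moved females relative to males by -1.01 to -0.57 on the log2 scale. They rest on a table selected on its difference between females and juveniles, which may have pulled them. With upper-quartile scaling 3201 transcripts were called higher in females, against 5564. The labels number the adult males and females 1 and 2, but nothing ties the numbers (correlation of the differences between replicates -0.04), and with a replicate block on the adults the adjusted p was 0.00114 for bmp15 and 0.00145 for gdf9, with 5304 transcripts called higher in females. For bmp15 in males against juveniles the log2 fold change was 2.25 with TMM, 2.53 with the total of the table and 2.69 with DESeq2, all past the threshold, and 1.10 to 3.07 when each fish was left out, past it only without male 2, where the male arm is 1 fish and the spread comes from the other groups. It was 1.05 with a pseudocount of 10 (adjusted p = 0.118). With only males and juveniles in the fit bmp15 fell under the filter and gave no value. For gdf9 leaving out each fish gave -0.35 (without male 1) to 1.97, with -0.22 without juvenile 2. The count of transcripts lower in males than in juveniles was 2561, 1361 with the total of the table and 591 to 2822 when each fish was left out, lowest without juvenile 3. By difference of means bmp15 was number 307 and gdf9 number 787, also among transcripts with a mean of at least 100, and when each adult was left out their numbers by ratio ran from 43 to 94 and from 51 to 140. With every male mean under the floor raised to it, they were number 66 and 94. The difference in the ratio of the genes kept its sign in all 6 alternatives of each comparison. It ran from 0.14 to 0.62 in females against males and from 0.61 to 2.31 in males against juveniles. Of these 6, the use of normalised counts in place of reads could not move it, because the size factor cancels within a fish. Nor could leaving out a fish reverse its sign, because by this ratio every female lay above every male and every male above every juvenile. Low read numbers limit the males and juveniles, which hold 76 and 21 reads of both genes. The cause of these changes was not tested.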
